A study of Mus musculus with 2 samples.

Results

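The immediate-early and heat-shock genes described here are 35 genes, picked by symbol from the 27998 genes of the count table, and all 35 were found. The early-response branch holds 24 genes: the AP-1 subunits Fos, Fosb, Fosl2, Jun, Junb and Jund, other early transcription factors, stress regulators, and the feedback inhibitors that end the response. The chaperone branch holds 11 genes of the HSP70, HSP90, HSP110, HSP40 and mitochondrial chaperone families.

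Immediate-early genes are transcribed within minutes of a stimulus by factors that the cell already holds, so that no new protein has to be made before they start. Fos and Jun proteins pair to form AP-1, which binds DNA and drives later genes, while phosphatases and RNA-binding proteins made in the same wave switch the signal off. Chaperones fold other proteins: some, such as Hspa8 and Hsp90ab1, are made at all times, and others, such as Hspa1a, are induced when heat-shock factor binds heat-shock elements in their promoters. Both sets are also known to be induced while tissue is digested with warm enzymes. The tumors of this study were digested with collagenase, and the part of that step in the levels below was not tested.

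Lewis lung carcinoma (LLC) cells, a mouse lung tumor line, were implanted under the skin of C57/BL6 mice at the age of 8 weeks, and the cells positive for CD45, the common leukocyte antigen, were sorted after 14 days, when the mice were 10 weeks old. All mice carried mir-21flox/flox, a loxP-flanked microRNA gene. Those of the conditional knockout also carried lysmCre, a recombinase inserted in the lysozyme gene Lyz2 and active mainly in monocytes, macrophages and granulocytes, so that T and NK cells are not its targets. Cells of 3 mice per genotype were pooled into 1 droplet library of 3′ ends, which gave 2 libraries, titled wt and cko. Without replicates no test over animals could be made, and every interval given is a 95% interval for counting error only, which leaves out the spread between mice and between cells. Genotype and the handling of each library cannot be told apart.

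The source descriptions swap the genotypes relative to the titles, and a gate for macrophages appears in the growth protocol although the design speaks of CD45+ cells, so the libraries are called by their titles. Lyz2, which lysmCre interrupts, had 19679 CPM (counts per 1000000 UMIs of the cells summed) in monocytes and macrophages of the library labelled wt and 9181 CPM in the library labelled cko, which goes with the titles. The libraries held 2449 and 2718 cells with a median of 8359 and 8247 UMIs (distinct molecules), and 5 barcodes occurred in both. After filtering, 2397 and 2646 cells remained, of which 88.1% fell into 16 gates set on marker UMIs, while 292 and 306 stayed ungated. The gates held 11 to 433 cells each and are named by the markers that define them. Ptprc, which encodes CD45, was present in every gate at 105 to 720 CPM. As a guide to free RNA, C1qa, C1qb and C1qc together reached 2.58% and 2.84% of their overall level in T and NK cells of the libraries labelled wt and cko. The gates of these cells leave out cells above a C1q limit, so these shares are in part set by the gate and can be too low. At that rate free RNA would give 8.72 and 12.9 CPM of Fos in these cells, against 73.0 and 90.9 CPM observed.

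The promoters of Hspa1a and Hspa1b, which encode the inducible HSP70, are shown whole because of a direction that both genes shared. Both were higher in the library labelled cko in every gate where they had at least 50 UMIs. That was 14 gates for Hspa1a and 6, all of monocytes and macrophages, for Hspa1b, with no share of all genes counted. Both lie on the minus strand of chromosome 17, and the 250 bases before each start span chr17:34972157-34972406 for Hspa1a and chr17:34959239-34959488 for Hspa1b (RefSeq, GRCm38.p6). Capitals mark the heat-shock element, searched as GAANNTTC or TTCNNGAA.
Hspa1a: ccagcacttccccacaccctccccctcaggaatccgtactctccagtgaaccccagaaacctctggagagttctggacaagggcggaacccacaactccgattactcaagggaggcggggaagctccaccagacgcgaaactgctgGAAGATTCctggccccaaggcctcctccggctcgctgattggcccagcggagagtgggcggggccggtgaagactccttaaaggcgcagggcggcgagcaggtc
Hspa1b: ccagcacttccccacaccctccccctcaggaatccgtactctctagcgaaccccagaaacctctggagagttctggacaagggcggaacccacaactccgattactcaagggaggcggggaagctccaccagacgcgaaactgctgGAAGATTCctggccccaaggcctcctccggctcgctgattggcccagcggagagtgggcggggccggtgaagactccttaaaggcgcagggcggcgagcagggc
The windows matched at 247 of 250 bases. The genes are near-identical copies, so reads shared between them may have been dropped or split by the counting, and their values are given apart and summed.

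The same element was found in 6 of the 8 chaperone genes with an entry in the promoter table (Hspa1a, Hspa1b, Hsph1, Dnaja1, Hspd1 and Hspe1) and in 3 of 22 early-response genes (Fosl2, Jun and Egr2), against 14.5% of all 27025 genes in the table. In Hspe1 and Hspd1, the partner subunits of the mitochondrial folding machine, it occurs as 3 overlapping copies in a stretch that the windows of both genes share, since the genes are read in opposite directions. The next 30-base stretches show the element in Hsph1 (chr5:149636351-149636380, minus strand), Hspe1 (chr1:55088053-55088082, plus strand) and Jun (chr4:95052332-95052361, minus strand), to set the single copy beside the array and beside an AP-1 gene.
Hsph1: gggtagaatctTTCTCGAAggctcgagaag
Hspe1: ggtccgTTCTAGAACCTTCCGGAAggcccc
Jun: ggcccagagaaGAATCTTCtagggtgaggt
Early-response promoters more often answer to CREB, which binds TGACGTCA, and to serum response factor, which binds the CArG box, a run of A or T letters between CC and GG. TGACGTCA was found in Dusp1 and Ppp1r15a (1.77% of all genes) and the CArG box in Egr2 and Zfp36 (1.62%). The sites in Dusp1 (chr17:26508597-26508626, minus strand), Ppp1r15a (chr7:45526269-45526298, minus strand) and Egr2 (chr10:67537787-67537816, plus strand) are shown as examples. Dusp1 is a feedback gene and Ppp1r15a a stress gene of the branch, and the Egr2 stretch holds a CArG box.
Dusp1: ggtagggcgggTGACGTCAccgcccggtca
Ppp1r15a: gagaccccgcctctccggTGACGTCAgcac
Egr2: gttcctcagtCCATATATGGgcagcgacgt
The AP-1 site itself, TGACTCA or TGAGTCA, was found in the promoter of Hspa5 and of no other matched member (5.16% of all genes). Each search read both strands, and a match is a string of letters, not a bound site. Egr1, Ier2, Hspa8, Hsp90aa1 and Hsp90ab1 were not matched.

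Across cell types, the branches stood apart most in granulocytic cells, gated on S100a8, S100a9 and related genes. Their early-response sum was 9779 CPM in the library labelled wt and 13498 CPM in the library labelled cko, 3.34-fold and 3.79-fold above all other gated cells of the same library. Their chaperone sum was 1883 and 1281 CPM, 0.273 and 0.207 times that of the other cells. Thus the cells with the highest early-response level had the lowest chaperone level in both libraries. Members entered this count with at least 50 UMIs in the gate, or 50 expected there from the other cells. Of the 14 early-response members that did, 9 were at least 2-fold higher than in other gated cells in both libraries, where 17.3% of all 1150 genes tested were. Fosl2, Ier3, Zfp36 and Socs3 entered only through being high in the gate, as genes of the background can too. Dusp1, a phosphatase that switches off MAP kinases, stood at 1745 and 2571 CPM against 163 and 222 in the other cells. Ier3, an early gene and target of ERK signalling, stood at 947 and 1198 CPM against 88.4 and 101. Junb and Fos reached 1958 and 1330 CPM in the library labelled wt and 3058 and 2075 in the library labelled cko. Fosl2, Zfp36, Klf2, Nfkbia and Socs3 were the other members past 2-fold.

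Of 7 chaperones tested in granulocytic cells, 6 were at least 2-fold lower in both libraries (Hspa1a, Hspa8, Hspa5, Hsp90aa1, Hsp90ab1 and Hspe1), where 36.5% of all genes tested were. Hsp90ab1, the constant cytosolic HSP90, had 117 and 123 CPM against 926 and 944 in the other cells. Hspa1a had 2 and 5 UMIs in all. The gate held 21 and 56 cells with a median of 3404 and 3712 UMIs, close to the 3184 UMIs of the shallowest deposited cell, and S100a8 alone made up 121558 and 154209 CPM, which lowers the CPM of every other gene.

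Mature dendritic cells, gated on Ccr7, Fscn1, Ccl22 and Il4i1, had the next highest early-response sum, 5787 and 6155 CPM. Of 13 members tested, 5 exceeded the other cells by 2-fold or more in both libraries (background 19.6%): Gadd45b, Klf6, Ier5, Nfkbia and Ppp1r15a. Gadd45b, Klf6 and Ppp1r15a entered this count only through being high in the gate, since under 50 UMIs were expected there. Gadd45b, a stress sensor induced by NF-κB, reached 1364 and 1045 CPM against 49.4 and 42.1 elsewhere. Klf6, a zinc-finger factor, reached 605 and 500 CPM. Fos and Klf2 were at least 2-fold lower there (background 22.6%), with Fos at 121 and 90.9 CPM. Junb, at 968 and 727 CPM, was among the largest parts of the sum in mature dendritic cells as it was in granulocytic cells, and Nfkbia was past 2-fold in both. No chaperone of the 7 tested passed 2-fold.

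Nonclassical monocytes, gated on Ace, Treml4, Eno3 and Adgre4, had 3 of 21 early-response members at least 2-fold higher in both libraries, where 2.19% of 4836 genes were. These were Nr4a1, an orphan nuclear receptor that this cell type is known to need, at 114 and 172 CPM against 23.9 and 34.5, Klf2 at 542 and 625 CPM against 206 and 310, and Klf4 at 66.2 and 91.8 CPM against 20.4 and 31.1. The chaperones Hspa5, the folding helper of the endoplasmic reticulum, and Hspd1 were at least 2-fold lower (background 5.31%). Hspa5 had 331 and 311 CPM there, against 786 and 732 in the other cells.

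In T and NK cells Jund was higher and Fos lower than in the other gated cells. Jund, the least inducible subunit, had 652 and 665 CPM in T and NK cells against 188 and 208 elsewhere. Fos had 73.0 and 90.9 CPM against 357 and 484. Of 23 early-response members tested 2 were at least 2-fold higher in both libraries (Jund and Dusp2, a nuclear phosphatase of activated lymphocytes), and of 11 chaperones 1 (the HSP110 gene Hsph1), shares below the 14.4% of all genes. Hsph1 entered only through its own UMIs, with under 50 expected. The 7 early-response members Fos, Ier3, Atf3, Dusp1, Zfp36, Klf4 and Socs3 and the chaperone Hspa1a were at least 2-fold lower (background 15.6%). Atf3 was near absent, with 5 and 6 UMIs. The chaperone sum of T and NK cells, 6377 and 6013 CPM, had a log2 ratio of −0.12 and −0.04 to that of monocytes and macrophages. That ratio depended on the scaling: it was −0.43 and −0.34 with TMM scaling, which sets the compared sums level on genes of stable ratio, and in the library labelled cko 0.014 with cells of at least 5000 UMIs. The makeup of the sum differed. Hspa8 had 2504 and 2289 CPM against 4054 and 3213 in monocytes and macrophages, while Hsp90ab1 had 1571 and 1449 CPM against 865 and 895. Without Hspa8 the chaperone sum was higher in T and NK cells, by 0.44 and 0.33 on the log2 scale. The early-response sum was lower in T and NK cells (log2 ratio −0.19 and −0.24, and −0.50 and −0.55 with TMM scaling), and without Fos that difference came to −0.04 and −0.08.

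**Figure D1:**
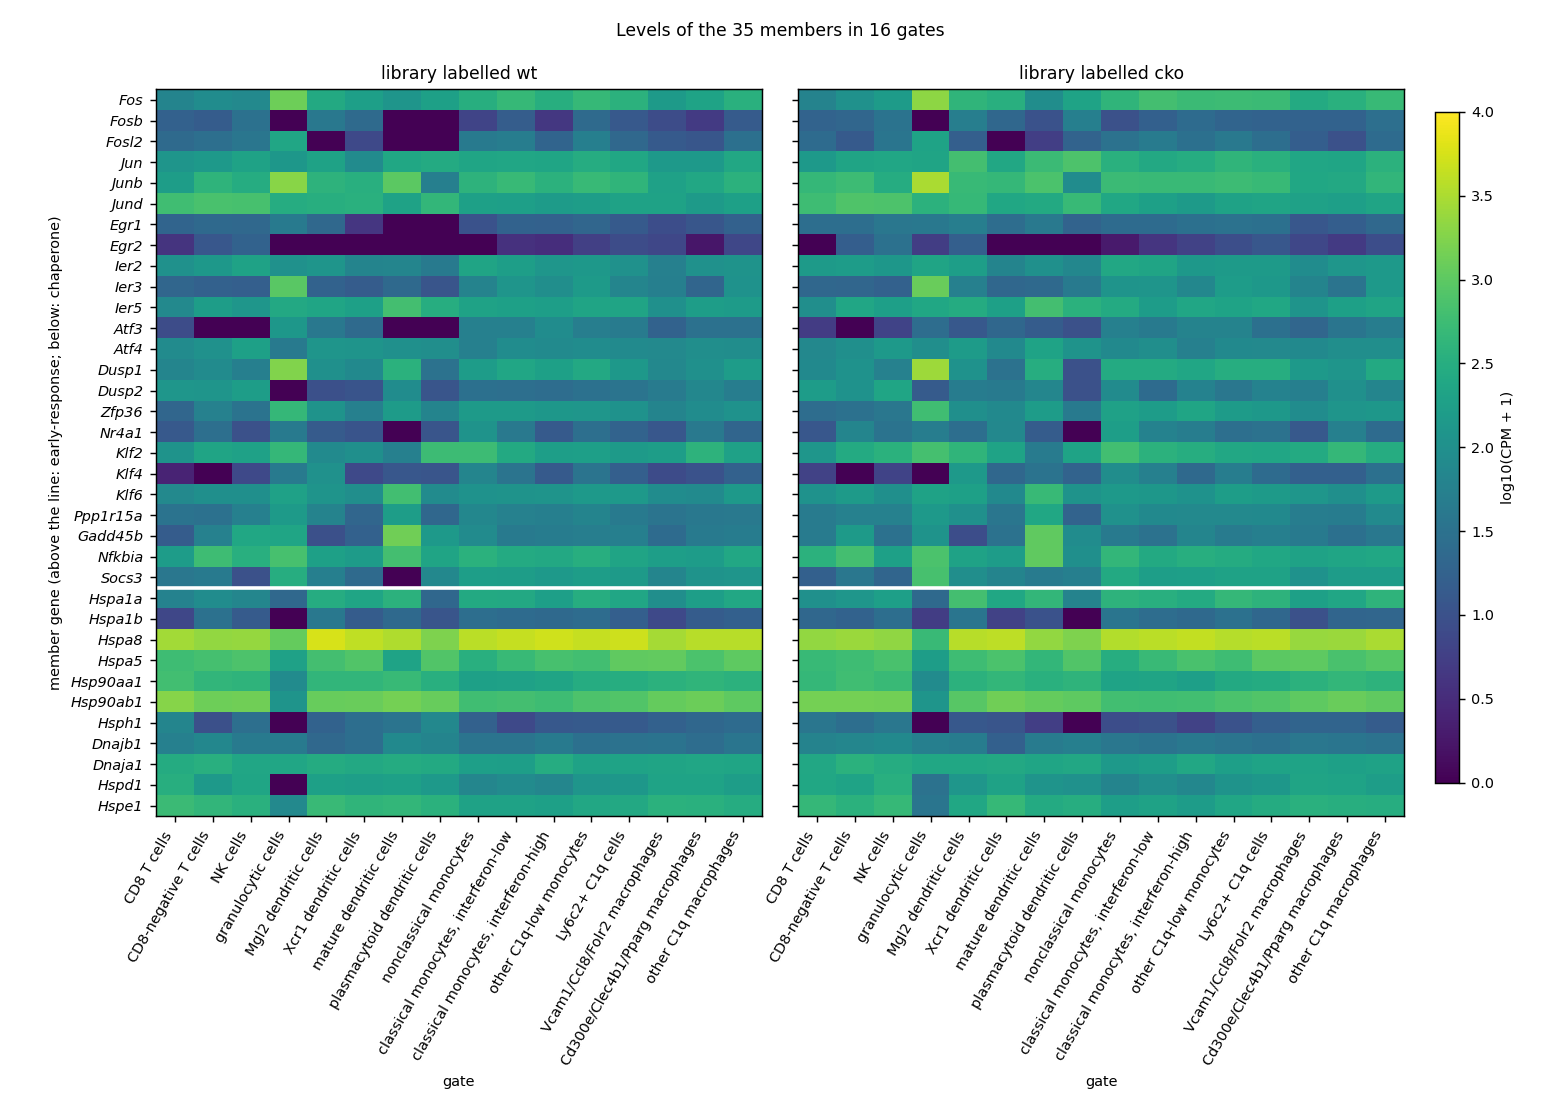
Colour gives the level of each member, log10 of CPM plus 1, in 16 gates (columns) of the library labelled wt (left) and the library labelled cko (right), with the early-response branch above the white line and the chaperone branch below it. The granulocytic column is bright for Fos, Junb, Ier3 and Dusp1 and dark for most chaperones in both libraries, and the row of Hspa8 is the brightest chaperone row.

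Among the states of monocytes and macrophages the early-response sum was lowest in macrophages gated on Vcam1, Ccl8 and Folr2, at 1765 and 2464 CPM. It was 3613 and 4821 CPM in nonclassical monocytes and 3482 and 3931 CPM in interferon-low classical monocytes, gated on Ly6c2. Fos ran from 153 to 479 CPM over these 8 gates in the library labelled wt and from 277 to 633 CPM in the library labelled cko. The chaperone sum varied less, from 5791 to 7955 CPM and from 5388 to 7015 CPM, and was highest in both libraries in cells with C1q and Ly6c2. In Ly6c2+ C1q cells Hspa5 reached 1067 and 968 CPM against 331 and 311 CPM in nonclassical monocytes.

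The libraries were compared within each gate, to ask how these genes stood in the conditional knockout. The early-response sum was higher in the library labelled cko in all 16 gates. In monocytes and macrophages together it was 2959 CPM labelled wt and 3587 CPM labelled cko, a log2 ratio (cko over wt) of 0.28 (interval 0.26 to 0.29). Within the 8 gates of these cells the ratio ran from 0.18 in interferon-low classical monocytes to 0.48 in Vcam1/Ccl8/Folr2 macrophages, and every interval lay above 0. Cd300e/Clec4b1/Pparg macrophages were 89 of the 1840 pooled cells labelled wt and 215 of the 1984 labelled cko. The part of this mixture in the pooled values was not tested. In lymphocytes, which are not targets of lysmCre, the ratio was 0.42 (interval 0.33 to 0.52) in CD8 T cells, 0.30 (0.19 to 0.41) in CD8-negative T cells and 0.05 (−0.07 to 0.16) in NK cells. Without the cell of the NK gate with the most early-response UMIs in each library the NK ratio was 0.38 (interval 0.25 to 0.50). The CD8-negative gate also held Ncr1, an NK marker, at 382 and 206 CPM. The NK gate, which set no limit on markers of mature dendritic cells, held Ccr7 at 147 and 5.41 CPM, whose part was not tested. In mature and plasmacytoid dendritic cells, as in NK cells, the interval included 0. The median share of mitochondrial UMIs per cell, a sign of cell quality, was 1.78% and 1.89% in monocytes and macrophages and 1.76% and 1.77% in T and NK cells, and its part in the difference was not tested.

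The chaperone sum went the other way in monocytes and macrophages, at 6912 CPM in the library labelled wt against 6181 in the other (log2 −0.16, interval −0.17 to −0.15), and was lower in the library labelled cko in each of their 8 gates (−0.27 to −0.10). That sum is mostly Hspa8, and without it the ratio was 0.05 (interval 0.04 to 0.07). In CD8 T cells the sum was lower too (−0.29, interval −0.35 to −0.23), and in CD8-negative T cells and NK cells it was higher (0.11 in both, but 0.015 with TMM scaling in CD8-negative T cells).

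**Figure D2:**
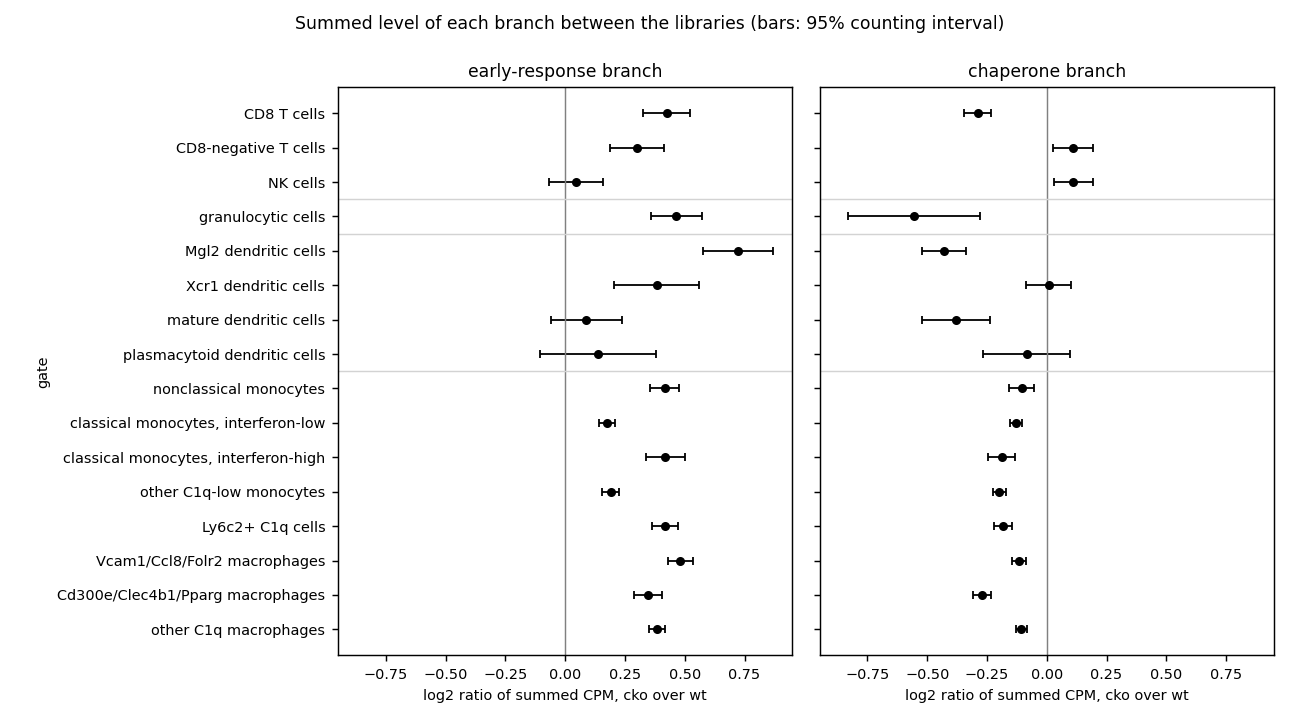
Points give the log2 ratio of the summed CPM of the early-response branch (left, 24 genes) and the chaperone branch (right, 11 genes), cko over wt, in 16 gates, with bars for the 95% counting interval. All early-response points lie above 0, from 0.05 in NK cells to 0.72 in Mgl2 dendritic cells, and the chaperone points of the 8 monocyte and macrophage gates lie below 0.

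Among the AP-1 subunits, Fos (ENSMUSG00000021250, chromosome 12, 85473890 to 85477273, GRCm38) and Jun (ENSMUSG00000052684, chromosome 4, 95049034 to 95052222) had a higher level labelled cko in each of the 8 monocyte and macrophage gates. Fos had 358 CPM labelled wt and 475 CPM labelled cko over these cells (0.41, interval 0.36 to 0.45), with gates from 0.18 to 0.86. Jun had 228 and 313 CPM (0.46, interval 0.40 to 0.51), with gates from 0.16 to 0.69. The share of these cells with a Fos UMI, after each cell was thinned to 3000 UMIs, was 50.2% (interval 47.9 to 52.5) and 57.7% (55.4 to 59.8), and 75.4% and 80.0% without thinning. So the share of cells with Fos was higher in the library labelled cko as well. Jun was higher in the library labelled cko in all 16 gates, and the share of all genes that were so was not counted.

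The other subunits were less uniform. Junb was higher in all 8 gates but by little over these cells, 390 against 423 CPM (0.12, interval 0.07 to 0.16). Jund had 182 and 200 CPM (0.14, interval 0.07 to 0.20) and was higher in 6 of 8 gates. Fosb, a subunit at low level, had 12.8 and 19.1 CPM (0.58, interval 0.35 to 0.82). Fosl2, which makes longer-lived AP-1, was lower in the library labelled cko, at 33.1 and 27.2 CPM (−0.28, interval −0.45 to −0.11).

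Most other early transcription factors were higher too. Klf2 (ENSMUSG00000055148, chromosome 8, 72319033 to 72321656), a factor that keeps leukocytes quiescent, had 229 and 334 CPM (0.54, interval 0.49 to 0.60) and was higher in all 8 gates. Klf4, which supports monocyte development, had 23.6 and 35.5 CPM (0.59, interval 0.42 to 0.76). Nr4a1 had 30.2 and 42.0 CPM (0.48), Egr1 14.7 and 21.8 CPM (0.57) and Egr2 4.41 and 5.99 CPM (0.44, interval 0.03 to 0.86, and −0.01 to 0.82 with TMM scaling). Egr1 and Egr2 are zinc-finger factors that growth signals induce, and both were near the limit of detection, with a UMI in 3.75% and 1.14% of thinned cells labelled wt. Klf6, Ier2 and Ier5 were higher by 0.19, 0.29 and 0.13, with Ier2 higher in all 8 gates.

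The stress regulators split. Ppp1r15a, which restarts translation after stress, had 49 and 70.2 CPM (0.52, interval 0.40 to 0.64) and was higher in all 8 gates. Atf3 and Atf4, factors of the integrated stress response, were almost equal over the pooled cells, with ratios of 0.03 (−0.11 to 0.17, with the sign turned by TMM scaling) and 0.04 (−0.06 to 0.14). By gate they differed both ways, Atf3 from −0.64 to 0.73 and Atf4 from −0.57 to 0.49. Gadd45b was lower in the library labelled cko, at 45.6 and 39.5 CPM (−0.21, interval −0.35 to −0.07).

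Of the feedback inhibitors, Dusp1 (ENSMUSG00000024190, chromosome 17, 26505590 to 26562128) had 173 and 238 CPM (0.46, interval 0.40 to 0.53) and was higher in all 8 gates, from 0.26 to 1.19. The value of 1.19 came from Ly6c2+ C1q cells, with 134 and 306 CPM. Zfp36, which binds and destabilizes cytokine mRNAs, had 115 and 139 CPM (0.27). Socs3, the inhibitor of IL-6 family signalling, had 137 and 170 CPM (0.32), and like Zfp36 it was higher in all 8 gates. Dusp2 had 38.5 and 56.6 CPM (0.56), higher in 7 of 8 gates, and Ier3 96.6 and 111 CPM (0.20), higher in 6. Nfkbia, the inhibitor of NF-κB, was nearly level at 255 and 258 CPM (0.02, interval −0.04 to 0.08, and −0.01 with TMM scaling).

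Counting over the members, 22 of 24 early-response genes had a higher CPM in the library labelled cko in monocytes and macrophages, where 60.2% of all 10431 genes with at least 50 UMIs had. The median log2 ratio of the members was 0.30, beside 0.04 over all those genes. By size these are small differences in the pooled cells. Only Klf4 passed 1.5-fold with an interval that left out 1, where 2.28% of all genes passed upward and 0.93% downward. Klf4 sat at the limit with 0.59, and Fosb, Egr1, Dusp2 and Hspa1a were just under it. No member passed with TMM scaling, and 4 passed without the top cell of each gene (Klf4, Fosb, Egr1 and Dusp2). The share of all genes was not counted under these 2 settings. Of the 18 early-response genes with at least 50 UMIs in every one of the 8 gates, 9 were higher in all 8 (Fos, Jun, Junb, Ier2, Dusp1, Zfp36, Klf2, Ppp1r15a and Socs3), where 5.39% of all genes were, and none was lower in all 8, where 2.33% were. Within single gates, early-response members past 1.5-fold upward ran from 1 of 23 in interferon-low classical monocytes (122 of 7398 genes) to 9 of 23 in Vcam1/Ccl8/Folr2 macrophages (259 of 7321). They were 7 of 24 in other C1q macrophages (177 of 8014). Downward, 1 passed in nonclassical monocytes (69 of 4303 genes) and 1 in Ly6c2+ C1q cells (87 of 5441). Gates of 1 library share its handling and are not replicates of a condition.

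**Figure D3:**
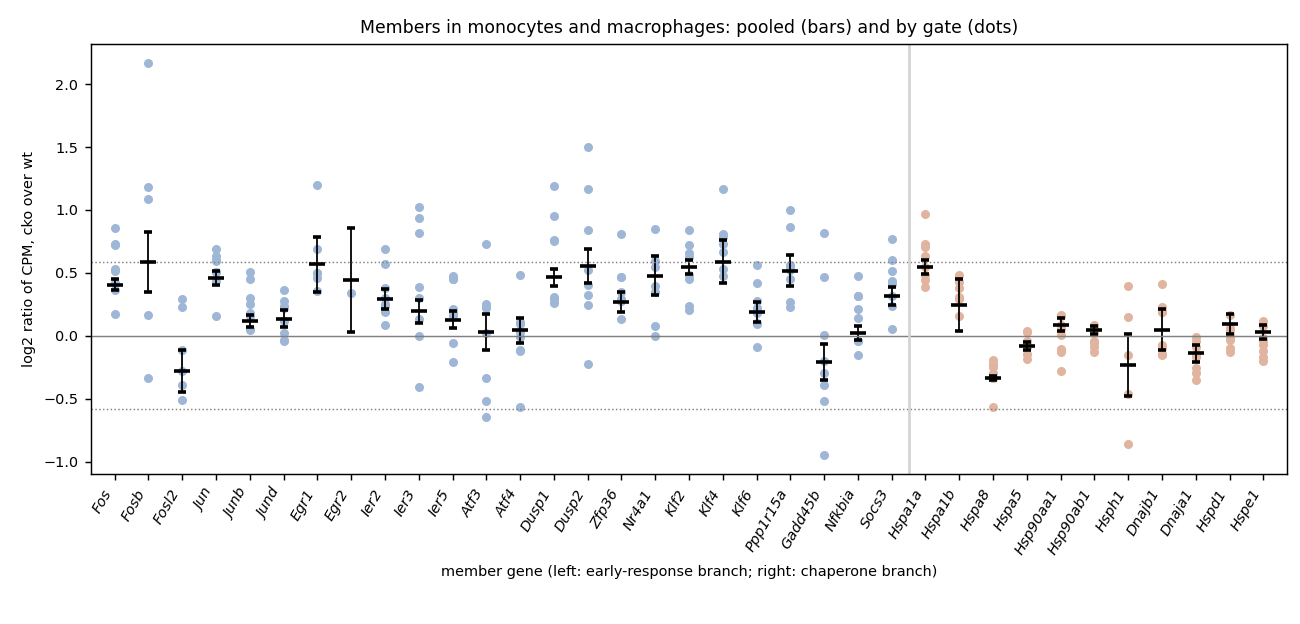
Black dashes give each member's log2 ratio (cko over wt) of CPM over all monocytes and macrophages, with bars for the 95% counting interval, and pale dots give the ratio in each of the 8 gates where the member had at least 50 UMIs. Dotted lines mark 1.5-fold; Fos, Jun, Dusp1, Klf2, Ppp1r15a and Hspa1a have all their dots above 0, and Hspa8 has all its dots below 0.

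The chaperones were not uniform. Hspa1a (ENSMUSG00000091971, chromosome 17, 34969190 to 34972156), the inducible HSP70, had 231 CPM labelled wt and 337 CPM labelled cko in monocytes and macrophages (0.55, interval 0.49 to 0.60). It was higher in the library labelled cko in all 8 gates, from 257 and 336 CPM in interferon-low classical monocytes (0.39) to 93.8 and 184 CPM in Vcam1/Ccl8/Folr2 macrophages (0.97, interval 0.76 to 1.19). The copy Hspa1b had 18.4 and 21.7 CPM (0.24, interval 0.04 to 0.45), and the sum of both had 249 and 358 CPM (0.53, interval 0.47 to 0.58). A UMI of Hspa1a was seen in 38.3% (36.0 to 40.5) and 44.2% (42.0 to 46.4) of thinned cells, and in 57.0% and 63.5% without thinning.

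Hspa8 (ENSMUSG00000015656, chromosome 9, 40800984 to 40810087), the constant HSP70, had 4054 and 3213 CPM (−0.34, interval −0.35 to −0.32) and was lower in the library labelled cko in all 8 gates, from −0.57 to −0.19. The widest gap was in Cd300e/Clec4b1/Pparg macrophages, with 3677 and 2484 CPM. So the inducible and the constant member of 1 family stood in opposite directions in the same cells. Dnaja1, an HSP40 partner of Hspa8, was the other chaperone that was lower in all 8 gates, at 209 and 190 CPM (−0.14, interval −0.20 to −0.08). Of 9 chaperones tested in every gate, these were the 2 lower in all 8, and Hspa1a the 1 higher in all 8, to be read beside the shares of all genes above.

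The remaining chaperones differed by less. Hspa5 was lower (778 and 736 CPM, −0.08), and Hsp90aa1 (303 and 322 CPM, 0.09), Hsp90ab1 (865 and 895 CPM, 0.05) and Hspd1 (138 and 147 CPM, 0.09) were higher with intervals that left out 0, but with TMM scaling those of Hsp90ab1 (0.01, −0.02 to 0.05) and Hspd1 (0.06, −0.02 to 0.14) included it. Hspe1 (0.03, and −0.01 with TMM scaling), the HSP40 gene Dnajb1 (0.05) and Hsph1 (−0.23, and −0.26 with TMM scaling, interval −0.51 to −0.02) had intervals that included 0 before that scaling. Hsph1 had 15.2 and 13 CPM and Dnajb1 32.5 and 33.6 CPM in these cells. No chaperone passed 1.5-fold in monocytes and macrophages.

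In T and NK cells pooled, 2 of 21 early-response members and 1 of 11 chaperones were at least 1.5-fold higher in the library labelled cko, where 3.21% of 5920 genes were. None was lower, where 2.58% were. Junb had 264 and 447 CPM (0.76, interval 0.58 to 0.94), Nr4a1 14.9 and 28.2 CPM (0.92, interval 0.17 to 1.72) and Hspa1a 68.3 and 124 CPM (0.86, interval 0.51 to 1.21). Junb had 167 and 460 CPM in CD8 T cells (1.46, interval 1.16 to 1.77), 393 and 555 CPM in CD8-negative T cells (0.50, interval 0.19 to 0.81) and 301 and 295 CPM in NK cells (−0.03, and 0.40 without the top cell of each library). A single CD8 T cell held 91 of the 444 Junb UMIs of the library labelled cko, and without the top cells the CD8 ratio was 1.27. Nfkbia had 161 and 368 CPM in CD8 T cells and 327 and 184 CPM in NK cells. In the NK gate, which also held Ccr7 at 147 CPM labelled wt, 1 cell of that library held 99 of its 151 Nfkbia UMIs and the top cell 100 of the 109 UMIs of Gadd45b. Without the top cells the NK ratio of Nfkbia turned from −0.83 to 0.50 and that of Gadd45b from −2.99 to −0.04. Hspa1a was higher in NK cells as well, at 67.2 and 181 CPM (1.43, interval 0.80 to 2.10).

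In dendritic cells 8 of 17 early-response members and 1 of 9 chaperones (Hspa1a) were at least 1.5-fold higher in the library labelled cko, where 6.22% of 3650 genes were. None was lower, where 3.78% were. Jun stood out, at 168 and 537 CPM (1.67, interval 1.38 to 1.98), and was higher in each of the 4 dendritic gates, from 1.16 to 1.68. Klf2 was not uniform: in Mgl2 dendritic cells it had 81.8 and 419 CPM (2.36, interval 1.64 to 3.14), and in plasmacytoid dendritic cells 549 and 211 CPM (−1.38, interval −2.14 to −0.66). Dusp2, Klf4, Ppp1r15a, Gadd45b, Nfkbia and Socs3 were the other members past the limit. Mature dendritic cells, whose early-response level is high, were 13 of 65 and 29 of 86 dendritic cells, so the pooled values of Gadd45b, Nfkbia and Ppp1r15a also carry that mixture, whose part was not tested. Within mature dendritic cells Gadd45b had 1364 and 1045 CPM. The gates of this class held 11 to 29 cells each.

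In granulocytic cells 4 of 14 early-response members were at least 1.5-fold higher in the library labelled cko, where 7% of 714 genes were: Fos (0.64), Junb (0.64), Ier2 (1.04) and Socs3 (1.14). Of 3 chaperones tested 1 was lower past that limit, where 21.6% of genes were: Hspa8, at 1117 and 522 CPM (−1.10, interval −1.49 to −0.71). Without the top cell of each library its ratio was −0.90. The chaperone UMIs per thinned cell had the same median, 3, in both libraries but a 90th percentile of 14 labelled wt and 6.5 labelled cko. Of the monocyte genes in the gate, Ly6c2 was lower as well, at 947 and 583 CPM, while Csf1r had 31.9 and 39.5 CPM. Lyz2 had 11013 and 2364 CPM (−2.22), but lysmCre interrupts this gene, and it was also lower in monocytes and macrophages (−1.10). The part of these genes in the result was not tested. The gate itself shifted: the median log2 ratio of all 714 genes was −0.15, and TMM scaling moved every ratio up by 0.45. With it the early-response sum, 0.47 before, came to 0.91, and the chaperone sum, −0.56 before, came to −0.11, while Hspa8 came to −0.65. The 5 members past 1.5-fold became 11 with TMM scaling and 9 without the top cell of each gene, settings for which the share of all genes was not counted.

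Cells differed widely in the early-response branch. In cells thinned to 3000 UMIs, the median monocyte or macrophage had 8 early-response UMIs labelled wt and 10 labelled cko, with 10% of cells at or under 3 and 4 and 10% at or above 17 and 22. These cells are of 8 gates, whose medians ran from 5 to 10 and from 7 to 13. The 25th percentile was 5 and 6 and the 75th 12 and 15, while the highest cells had 129 and 99. For the chaperone branch the medians were 19 and 17. Granulocytic cells had a median of 30 and 38 early-response UMIs and of 3 chaperone UMIs in both libraries. The correlation of the 2 sums from cell to cell, pooled over the 8 gates, was −0.01 over 1840 monocytes and macrophages labelled wt and 0.01 over 1984 labelled cko. Within gates it was 0.12 and 0.01 in other C1q macrophages and 0.01 and 0.02 in interferon-low classical monocytes, the 2 gates for which it was computed. Over the pooled monocytes and macrophages Fos went with Dusp1 (r = 0.29 and 0.30) and Junb (0.26 and 0.27), and Hspa1a went with Jun (0.15 and 0.31) more than with Hspa8 (0.04 and 0.03). In T and NK cells Fos went little with Dusp1 (0.07 and 0.04) or Junb (0.11 and −0.03). These are descriptions of sparse counts from cells that share a library.

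**Figure D4:**
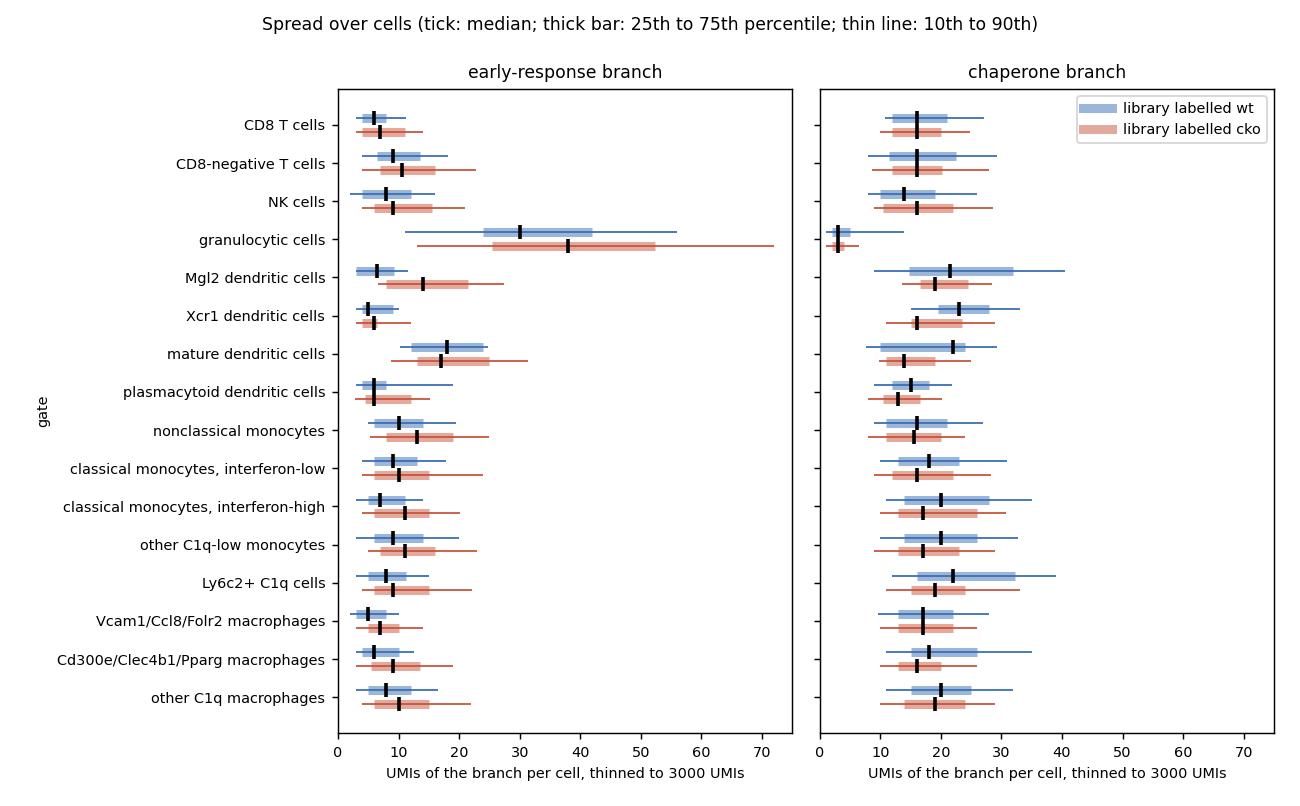
Ticks give the median number of UMIs of the early-response branch (left) and the chaperone branch (right) per cell after thinning to 3000 UMIs, thick bars the 25th to 75th and thin lines the 10th to 90th percentile of cells, for 16 gates of the libraries labelled wt (blue) and cko (red). Granulocytic cells lie far to the right of all other gates for the early-response branch (medians 30 and 38) and far to the left for the chaperone branch (medians 3 and 3).

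Outside the members, the genes whose level over the 32 combinations of gate and library was most like the early-response sum were Srgn (r = 0.86), Csrnp1 (0.86), Ptp4a1 (0.85), Neat1 (0.84) and Fam32a (0.83), out of 5173 genes averaging 20 CPM or more. Srgn encodes the granule proteoglycan serglycin, and Csrnp1 is itself an early-response factor. Without granulocytic cells their r was 0.67 to 0.82. For the chaperone sum the nearest were Fam188a (0.92), Eif6 (0.92), Nt5c (0.91), Usp14 (0.91) and Gtf2f2 (0.91), but their r fell to between 0.26 and 0.51 without granulocytic cells, so this likeness rests on that gate. The combinations share libraries and depth, and the correlations are descriptions.

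Other genes of the same pathways, listed by role, showed a smaller early-response difference over all monocytes and macrophages. Of 25 further early-response genes 24 were found, among them Maff, Btg2, Nr4a2 and Tnfaip3, and their sum was 2512 and 2661 CPM in monocytes and macrophages (0.08, interval 0.06 to 0.10). With at least 50 UMIs, 15 of 22 were higher in the library labelled cko, near the 60.2% of all genes, and none passed 1.5-fold. Of 32 further chaperones and cochaperones 31 were found, with a sum of 4884 and 5006 CPM (0.04, interval 0.02 to 0.05), 22 of 30 higher beside the same 60.2%, and 1 past 1.5-fold, downward. The 5 regulators Hsf1, Hsf2, Srf, Elk1 and Creb1 together had 60.5 and 56.0 CPM (−0.11, interval −0.23 to 0.01). By gate the sum of the further early-response genes ranged from −0.19 (interval −0.46 to 0.08) in plasmacytoid dendritic cells to 0.45 (interval 0.38 to 0.51) in Vcam1/Ccl8/Folr2 macrophages, where 15 of 16 were higher, beside 55.0% of all genes higher. It was 0.41 in Mgl2 dendritic cells, 0.26 in granulocytic cells and 0.23 in Ly6c2+ C1q cells. In NK cells it was 0.20, although 5 of the 7 tested were lower and their median was −0.25.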

How the data were processed

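Per the labels, cells went through 10x Genomics 3′ version 2 chemistry. The deposited values are raw UMI counts per gene and cell, which the authors made with Cell Ranger on mm10, and Seurat is also named in the submitters' processing notes. Versions and the annotation are not given in the sources used here. Genes were taken by symbol, and the members and gene lists were chosen with earlier results of these data known. Cells with under 200 genes or over 10% mitochondrial UMIs were left out (4 and 14). Scrublet (scanpy 1.11.5) marked 7 of 5149 cells (0.136%) by its automatic threshold, which is too few to rely on, so the 48 and 58 highest-scoring cells were removed.

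Gates used UMIs of marker genes, none of them a member, with limits set after looking at marker distributions. They rest on T cell (Cd3, Cd8), NK, C1q, S100a8/S100a9, dendritic, Ly6c2, nonclassical and interferon genes. Counts were summed per gate and divided by all UMIs of the gate. Intervals are exact 95% ones (Poisson for a level, conditional binomial for a ratio, Clopper-Pearson for a share), cover counting error only, and stand in for a test, since each genotype has 1 library. A member was called between libraries at 1.5-fold with at least 50 UMIs and an interval leaving out 1. Between cell classes it was called at 2-fold in both libraries, with at least 50 UMIs in the class or expected there from the other cells. All members are described, and genes alike in pattern were taken by Pearson's r. Shares of cells were compared after thinning to 3000 UMIs, which left out no cell. Counts of 3′ ends do not scale with gene length, and processed pseudogenes can share reads with some chaperones. Alternatives were TMM scaling, other totals, gates and depths, and leaving out single cells; leaving out Fos or Hspa8 was added after seeing the data. The ratio intervals and calls were tried on simulated Poisson counts. Those hold counting error alone, so they cannot show how the intervals fare with spread between cells.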

Additional observations from a re-analysis of the deposited data

Results flagged for a closer look

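The comparison of the libraries went opposite ways in different gates for 5 members. No difference between gates was tested, and all values are log2 ratios of cko over wt past 1.5-fold.

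Klf2 was lower in plasmacytoid dendritic cells (−1.38) and higher in Mgl2 dendritic cells (2.36), Xcr1 dendritic cells (1.11), NK cells (0.89), interferon-high classical monocytes (0.84), Vcam1/Ccl8/Folr2 macrophages (0.72), Ly6c2+ C1q cells (0.66) and other C1q macrophages (0.63). Gadd45b was lower in NK cells (−2.99, resting on 1 cell) and nonclassical monocytes (−0.94), and higher in CD8 T cells (1.70), CD8-negative T cells (1.42) and Vcam1/Ccl8/Folr2 macrophages (0.82). Nfkbia was lower in NK cells (−0.83, resting on 1 cell) and higher in CD8 T cells (1.19) and mature dendritic cells (0.72). Ier2 was lower in NK cells (−0.60) and higher in granulocytic cells (1.04) and Vcam1/Ccl8/Folr2 macrophages (0.69). Atf3 was lower in Ly6c2+ C1q cells (−0.64) and higher in other C1q macrophages (0.73).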

How the results depend on the processing

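Of 90 alternative values of the branch sums, 60 moved by less than their counting interval, 26 moved by more and 4 changed direction. The causes were not tested beyond what each alternative leaves out. No paired analysis was possible because each genotype has 1 library.

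For cko over wt, the early-response sum in monocytes and macrophages was 0.24 with TMM scaling and 0.26 without Fos. In CD8 T cells it was 0.27 as a mean over cells and 0.54 with stricter gates, and in NK cells 0.32 as a mean over cells and 0.38 without the top cell. The chaperone sum in monocytes and macrophages was −0.19 with TMM scaling, −0.17 with mitochondrial genes and Lyz2 left out of the total, −0.18 with stricter gates and 0.055 without Hspa8. It was −0.14 in CD8 T cells as a mean over cells, and in NK cells 0.21 both as a mean over cells and with stricter gates, and 0.23 without Hspa8.

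For T and NK cells over monocytes and macrophages, the early-response ratio labelled wt was −0.50 with TMM scaling, −0.29 both without the top cell and with cells of at least 5000 UMIs, and −0.045 without Fos. Labelled cko it was −0.55 with TMM scaling, −0.30 with cells of at least 5000 UMIs and −0.081 without Fos. The chaperone ratio labelled wt was −0.43 with TMM scaling, −0.23 as a mean over cells, −0.17 with stricter gates, −0.072 with cells of at least 5000 UMIs and 0.44 without Hspa8. Labelled cko it was −0.34 with TMM scaling, −0.12 as a mean over cells, 0.014 with cells of at least 5000 UMIs and 0.33 without Hspa8.

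The number of members past 1.5-fold in monocytes and macrophages, 1, became 0 with TMM scaling and 4 without the top cell of each gene. In granulocytic cells, 5 became 11 with TMM scaling and 9 without the top cell. For neither class was the share of all genes counted under these alternatives. Of 280 values of single members in monocytes and macrophages, 273 moved by less than their interval, 7 by more, and none changed direction past its interval. With 1 library per genotype, no alternative addresses the spread between mice.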
